A study of Homo sapiens with 9 samples.

Results

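The transcription factor NRF2 (gene NFE2L2), its inhibitor KEAP1, and genes that NRF2 is known to induce were followed in A549 cells after knockdown of aldose reductase (AKR1B1) or of sorbitol dehydrogenase (SORD). The group holds 35 genes chosen by symbol from the pathway's known members, among them the aldo-keto reductases AKR1B10, AKR1B15, AKR1C1, AKR1C2 and AKR1C3. All 35 symbols matched 1 gene ID each among the 57905 IDs of the count table, and all 35 were among the 16916 genes with enough reads to be tested. A549 is an established line from a human lung adenocarcinoma, and RNA was sequenced from 9 cultures. In 3 shAKR1B1 libraries the cells carried a short hairpin RNA (shRNA, which directs the degradation of a matching transcript) against AKR1B1, in 3 shSORD libraries one against SORD, and the 3 control libraries are labelled both as scrambled and as plko, a name used for the hairpin vector. Cells of all 3 groups were grown in medium with 5% serum. The labels give 1 shRNA name per target, so the effect of a single hairpin sequence and that of the loss of its target cannot be told apart. They do not say whether cultures of a group were transduced separately, so the p-values rest on a spread between libraries that may be technical.

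KEAP1 is the adaptor that holds NRF2 in the cytoplasm and hands it to a CUL3 ubiquitin ligase for degradation. When KEAP1 is disabled by electrophiles, oxidants or mutation, NRF2 enters the nucleus, pairs with small MAF proteins and binds antioxidant response elements in front of genes for glutathione and thioredoxin metabolism, NADPH supply, quinone and carbonyl reduction, iron handling and drug export. BACH1 occupies some of the same elements and represses them, HMOX1 above all. A549 cells are known to carry an inactivating KEAP1 mutation and to hold NRF2 active at rest, and AKR1B10 and the AKR1C enzymes are among the genes set high by this state. AKR1B1 belongs to the same enzyme superfamily as AKR1B10, and both reduce aldehydes with NADPH.

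Libraries held 32436524 to 43044456 counts, and levels are given as CPM, the deposited counts per 1e6 counts after trimmed-mean (TMM) scaling of library size, which are relative to the other RNA of the same library. A lower share of cells with a transcript and less of it per cell cannot be told apart in such bulk RNA. AKR1B1 stood at 154 ± 11.7 CPM in shAKR1B1 cells, 1063 ± 103 CPM in shSORD cells and 1416 ± 34.7 CPM in control cells (SD, n = 3 per group, as for all means below), and SORD at 30.5 ± 0.411 CPM in shAKR1B1 cells, 8.62 ± 0.414 CPM in shSORD cells and 42.9 ± 1.19 CPM in control cells, so each hairpin's target was lowest in its own libraries. The epithelial keratin KRT8 averaged 6105 ± 146 CPM in shAKR1B1 cells, 5323 ± 568 CPM in shSORD cells and 3886 ± 50.7 CPM in control cells, and the epithelial surface markers were also higher in the knockdowns, with EPCAM at 10.5 ± 0.904 CPM in shAKR1B1 cells, 15.6 ± 1.09 CPM in shSORD cells and 3.06 ± 0.0549 CPM in control cells and CDH1 at 301 ± 15.2 CPM in shAKR1B1 cells, 312 ± 23.8 CPM in shSORD cells and 141 ± 4.06 CPM in control cells, while the leukocyte markers PTPRC, CD3E and CD68 had at most 5 counts and the endothelial markers VWF, CDH5 and KDR at most 6. Of the fibroblast markers, DCN had at most 4 counts and PDGFRB at most 46 in any library, and COL1A1 averaged 8.92 ± 0.681 CPM in shAKR1B1 cells, 36.4 ± 8.34 CPM in shSORD cells and 15.0 ± 0.874 CPM in control cells. The part of these marker differences in the results below was not tested. Of the lung markers, NKX2-1 had at most 4 counts in any library, SFTPA1 at most 1, SFTPB 0 and SFTPC at most 15, and NAPSA had 37 to 101. Fold changes, standard errors (SE) and adjusted p-values come from edgeR's quasi-likelihood test on all genes with Benjamini-Hochberg adjustment, and a gene is said to have risen or fallen where the adjusted p was under 0.05. Both knockdowns were set against the same 3 control libraries, so their values against control are not independent of each other.

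The 35 genes did not move together. With shAKR1B1 14 of them rose and 13 fell against control, where 27.8% of all genes tested rose and 29.6% fell. The median log2 fold change was 0.00 over the 35 genes and -0.00 over all genes tested. With shSORD 5 rose and 14 fell, against 27.5% and 29.0% of all genes, with medians of -0.07 and -0.00. The number that rose with shSORD was the least stable of these counts, at 9 with libraries scaled by total count (then with 11 fallen) and 12 without shSORD library 3. Scaling by total count also moved the median log2 fold change of all genes tested with shSORD, from -0.002 to 0.063. Changes of 2-fold or more were few: GPX2 rose that far with shAKR1B1 and with shSORD, and HMOX1 fell that far with shAKR1B1. Among all genes 8.45% rose and 3.93% fell at least 2-fold with shAKR1B1, and 8.02% rose and 3.10% fell that far with shSORD. The 35 genes together took 4.27 to 4.43% of all counts in shAKR1B1 libraries, 3.74 to 3.99% in shSORD libraries and 3.64 to 3.68% in control libraries. This share follows the most abundant genes and is not a typical change. FTL averaged 8773, 7715 and 7090 CPM in shAKR1B1, shSORD and control cells, and AKR1B10 6762, 4355 and 4947 CPM.

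**Figure D1:**
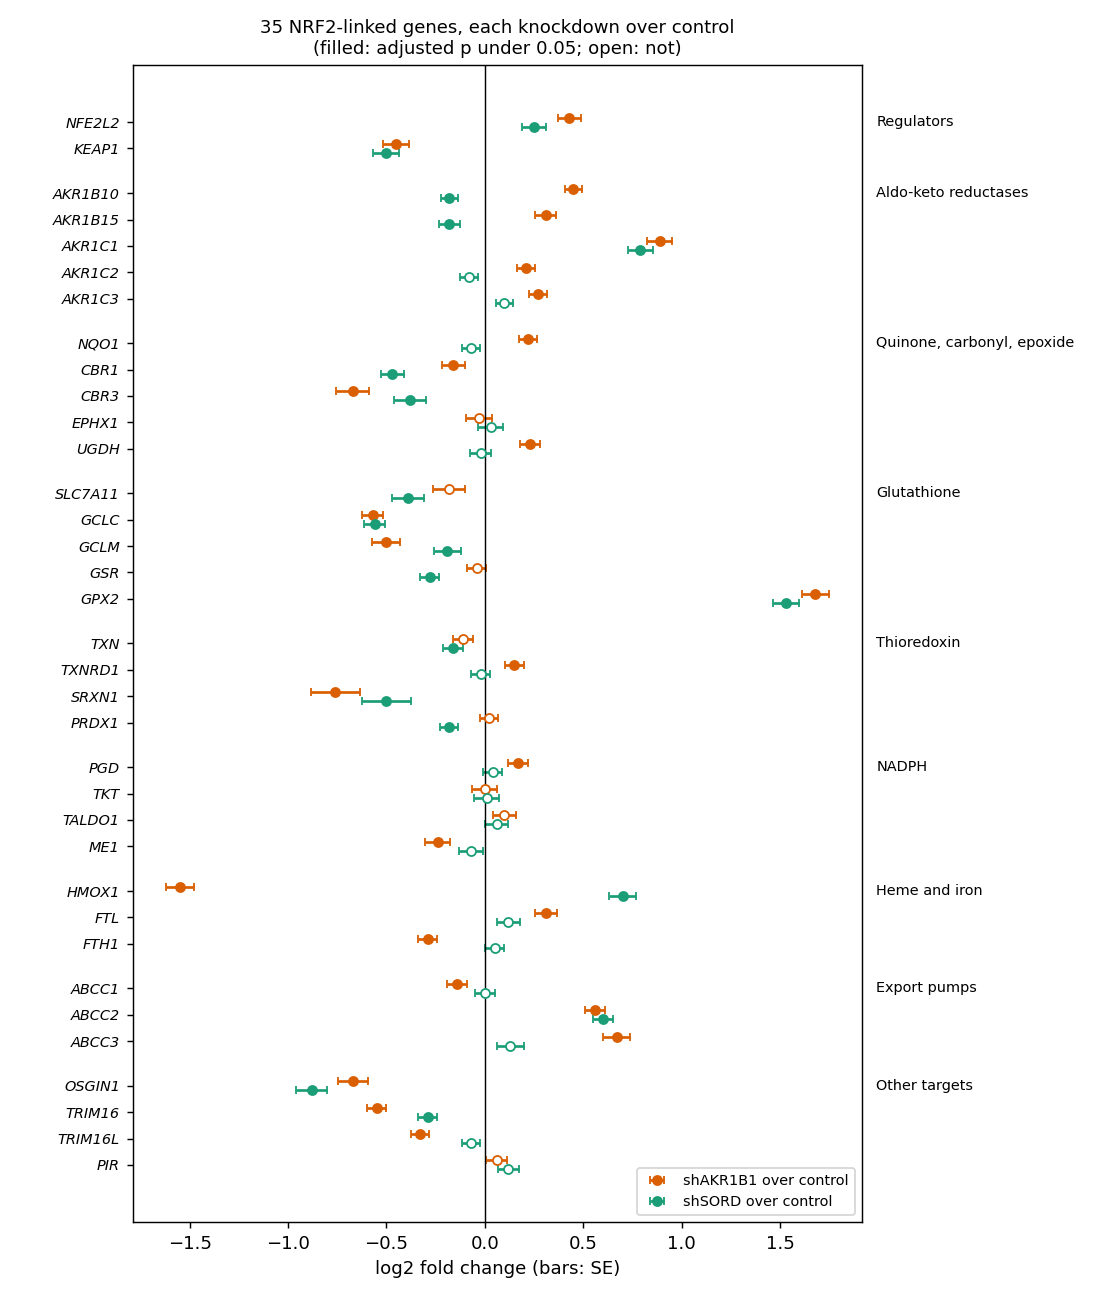
Log2 fold change of each of the 35 genes against control with shAKR1B1 and with shSORD, grouped by role, with bars of 1 SE and filled marks for adjusted p under 0.05. GPX2 stands furthest right in both comparisons, at 1.68 and 1.53, and HMOX1 lies at -1.55 with shAKR1B1 and 0.70 with shSORD.

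Sequences upstream of the genes are shown to set the known NRF2 element beside the way its bearers moved. The core of the antioxidant response element, TGACNNNGC, was searched on both strands in the 250 bases before each transcript start of the RefSeq promoter table (GRCh38.p14), which holds 24 of the 35 genes. It was found for 8 of the 24, namely CBR1, EPHX1, GCLM, GPX2, KEAP1, ME1, PGD and TXNRD1, and for 13.2% of all 27305 genes of the table. The longer TGACTCAGC, which contains the core, was found in ME1 and in 0.568% of all genes. The following 49-base stretches are written 5′ to 3′ on the strand of the gene, with the core in capitals, whether it lies on that strand or on the opposite one.
GPX2 (glutathione peroxidase 2), chr14:64942839-64942887, minus strand: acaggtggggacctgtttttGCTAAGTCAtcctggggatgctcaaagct
GCLM (glutamate-cysteine ligase modifier subunit), chr1:93909436-93909484, minus strand: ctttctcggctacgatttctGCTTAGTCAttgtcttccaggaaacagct
ME1 (malic enzyme 1), chr6:83431160-83431208, minus strand: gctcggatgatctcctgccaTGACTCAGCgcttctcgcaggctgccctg
TXNRD1 (thioredoxin reductase 1), chr12:104286910-104286958, plus strand: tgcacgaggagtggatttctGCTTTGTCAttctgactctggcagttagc
CBR1 (carbonyl reductase 1), chr21:36069845-36069893, plus strand: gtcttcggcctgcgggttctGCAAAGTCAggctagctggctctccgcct
KEAP1, chr19:10502774-10502822, minus strand: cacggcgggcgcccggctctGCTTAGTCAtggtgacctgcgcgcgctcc

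The 8 genes with the core did not share a direction. With shAKR1B1 3 of them rose (GPX2, TXNRD1 and PGD), 4 fell (GCLM, ME1, CBR1 and KEAP1) and EPHX1 did not pass the threshold. Of all genes tested 27.8% rose and 29.6% fell with shAKR1B1. The CBR1 call was lost on leaving out any 1 of 6 libraries, and that of TXNRD1 on leaving out either of 2. With shSORD GPX2 rose, GCLM, CBR1 and KEAP1 fell, and the other 4 did not pass. Of all genes tested 27.5% rose and 29.0% fell with shSORD. The GCLM call with shSORD was lost on leaving out any 1 of 5 libraries. GPX2 and GCLM both carry the core on the opposite strand, and GPX2 moved up while GCLM moved down in both comparisons. A match is a stretch of letters and not a measured binding site, and the window leaves out enhancers further away.

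The pair at the head of the pathway moved in opposite directions. NFE2L2 (ENSG00000116044), which encodes NRF2, had 145, 136 and 143 CPM in shAKR1B1 cells, 126, 117 and 133 CPM in shSORD cells and 103, 109.9 and 103 CPM in control cells. Every shAKR1B1 and shSORD library lay above every control library. NFE2L2 rose in both comparisons with control, with a log2 fold change of 0.43 (SE 0.0588, adjusted p = 2.06e-05) with shAKR1B1 and 0.25 (SE 0.0588, adjusted p = 0.00207) with shSORD. KEAP1 had 68.3, 71.0 and 72.0 CPM in shAKR1B1 cells, 68.0, 73.8 and 62.5 CPM in shSORD cells and 103, 92.9 and 93.2 CPM in control cells, and all knockdown libraries lay below all control libraries. KEAP1 fell in both comparisons with control, with a log2 fold change of -0.45 (SE 0.0666, adjusted p = 3.89e-05) with shAKR1B1 and -0.50 (SE 0.0666, adjusted p = 1.65e-05) with shSORD. The transcript level of NFE2L2 says nothing of the NRF2 protein, which is controlled mainly by its stability. In the GENCODE 29 annotation NFE2L2 shares 1054 exon bases with AC019080.1 on its own strand (982 counts over the 9 libraries, against 43283 for NFE2L2). On the other strand it shares 190 exon bases with AC079305.1 (145 counts) and 54 with AGPS, and the strand setting of the counting is not given in the sources used here.

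The aldo-keto reductases AKR1B10 and AKR1B15, neighbours of AKR1B1 in sequence, rose with shAKR1B1 and fell with shSORD. AKR1B10 (ENSG00000198074), which reduces retinal and other aldehydes, had 6872, 6826 and 6586 CPM in shAKR1B1 cells, 4402, 4233 and 4430.3 CPM in shSORD cells and 4929, 4989.6 and 4922 CPM in control cells. The 3 groups were separate, with shAKR1B1 libraries highest and shSORD libraries lowest. AKR1B10 rose with shAKR1B1, at a log2 fold change against control of 0.45 (SE 0.0429, adjusted p = 4.57e-07), and fell with shSORD, at -0.18 (SE 0.0428, adjusted p = 0.00197). AKR1B15, its close relative, had 151, 155 and 153 CPM in shAKR1B1 cells, 111, 113 and 104 CPM in shSORD cells and 131, 121 and 119.9 CPM in control cells, in the same order. AKR1B15 rose with shAKR1B1, at a log2 fold change against control of 0.31 (SE 0.0543, adjusted p = 0.000216), and fell with shSORD, at -0.18 (SE 0.0545, adjusted p = 0.0104). The fall of AKR1B15 with shSORD was not called without control library 1 (log2 -0.14, adjusted p = 0.0644) or with total count scaling (-0.12, adjusted p = 0.088). Of the 50-base words of AKR1B10 transcripts 9.69% also occur in AKR1B15, so reads can be lost or shared between them, and AKR1B10 and AKR1B1 share 0 such words. The summed counts of AKR1B10 and AKR1B15 gave a log2 fold change of 0.45 with shAKR1B1 (adjusted p = 4.69e-07) and -0.18 with shSORD (adjusted p = 0.00191).

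The AKR1C enzymes, which reduce steroids, prostaglandins and other ketones, all rose with shAKR1B1. AKR1C1 rose most of the 5 reductases in both comparisons. It had 974, 969.8 and 902 CPM in shAKR1B1 cells, 971, 894 and 797 CPM in shSORD cells and 512, 512 and 511 CPM in control cells, and no knockdown library came near the control level. AKR1C1 rose in both comparisons with control, with a log2 fold change of 0.89 (SE 0.0636, adjusted p = 2.17e-08) with shAKR1B1 and 0.79 (SE 0.0635, adjusted p = 9.93e-08) with shSORD. AKR1C2, the most abundant of the 3, had 4092, 4008 and 3905 CPM in shAKR1B1 cells, 3411, 3207 and 3170.2 CPM in shSORD cells and 3438, 3474 and 3445 CPM in control cells. Its shAKR1B1 libraries were all above control, and its shSORD libraries all below. AKR1C2 rose with shAKR1B1, at a log2 fold change against control of 0.21 (SE 0.0452, adjusted p = 0.000947), and did not pass the threshold with shSORD, at -0.08 (SE 0.0452, adjusted p = 0.138). AKR1C3, known for making testosterone from androstenedione, had 2631, 2633 and 2527 CPM in shAKR1B1 cells, 2333, 2368 and 2229 CPM in shSORD cells and 2161, 2206 and 2108 CPM in control cells. AKR1C3 rose with shAKR1B1, at a log2 fold change against control of 0.27 (SE 0.0454, adjusted p = 0.000147), and did not pass the threshold with shSORD, at 0.10 (SE 0.0454, adjusted p = 0.079). The shSORD value of AKR1C3 passed the threshold with total count scaling (0.16, adjusted p = 0.00741), with a filter of at least 1 CPM in 3 libraries (0.14, adjusted p = 0.0178) and without shSORD library 3 (0.14, adjusted p = 0.0119).

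AKR1C1 and AKR1C2 are near-identical, with 28.3% of the 50-base words of AKR1C1 also in AKR1C2, so how counting split their reads bears on each value. AKR1C1 made up 12.6% of the summed CPM of AKR1C1, AKR1C2, AKR1C3 and AKR1C4 in shAKR1B1 cells, 13.7% in shSORD cells and 8.36% in control cells. The sum averaged 7551 ± 190 CPM in shAKR1B1 cells, 6462 ± 259 CPM in shSORD cells and 6124 ± 64.2 CPM in control cells. On the sum the rise with shAKR1B1 was smaller, at log2 0.30 (adjusted p = 4.46e-05), and with shSORD the sum gave 0.08 (adjusted p = 0.158). With AKR1C1 at 8.36% of the control sum, a rise of AKR1C1 alone moves the sum little. The sum therefore cannot decide whether the AKR1C1 values come from the split of reads. That shSORD value passed with total count scaling (0.14, adjusted p = 0.0165), with the filter of at least 1 CPM in 3 libraries (0.12, adjusted p = 0.0405) and without shSORD library 3 (0.13, adjusted p = 0.02).

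**Figure D2:**
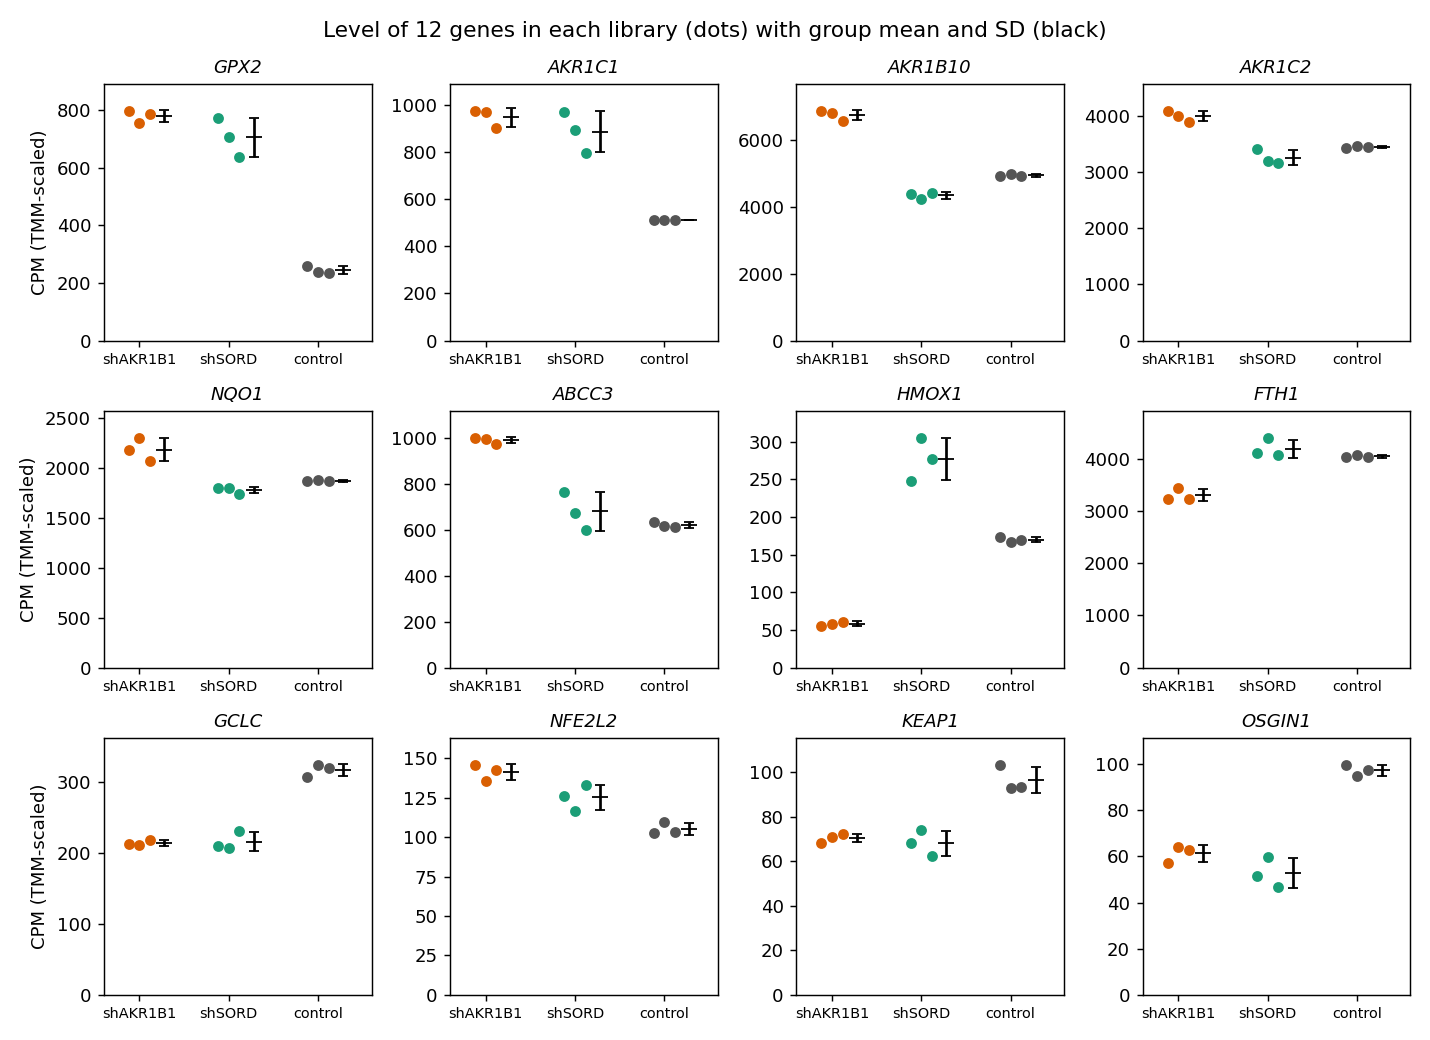
CPM of 12 of the genes in each library, on a linear axis per gene, with shAKR1B1 left, shSORD in the middle and control right; points are libraries, and bars give the mean and SD of the 3 libraries. GPX2 and AKR1C1 are high in both knockdowns, and HMOX1 lies below control with shAKR1B1 (54.7 to 61.3 CPM) and above it with shSORD (248 to 305 CPM).

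Of the other quinone, carbonyl and xenobiotic enzymes, 2 of 5 rose and 2 fell with shAKR1B1, and 2 fell with shSORD. NQO1, the quinone reductase most used as a readout of NRF2, had 2186, 2299 and 2076 CPM in shAKR1B1 cells, 1801, 1802 and 1744 CPM in shSORD cells and 1866, 1882 and 1871 CPM in control cells. The shAKR1B1 libraries were highest, and the shSORD libraries lay just below control. NQO1 rose with shAKR1B1, at a log2 fold change against control of 0.22 (SE 0.0475, adjusted p = 0.000962), and did not pass the threshold with shSORD, at -0.07 (SE 0.0475, adjusted p = 0.212). UGDH, which makes UDP-glucuronic acid for glucuronidation, had 696, 659 and 667 CPM in shAKR1B1 cells, 578, 531 and 598 CPM in shSORD cells and 559, 591 and 579 CPM in control cells, with only the shAKR1B1 libraries apart from the rest. UGDH rose with shAKR1B1, at a log2 fold change against control of 0.23 (SE 0.0531, adjusted p = 0.00203), and did not pass the threshold with shSORD, at -0.02 (SE 0.0531, adjusted p = 0.79). The carbonyl reductases went the other way. CBR1 had 128, 137 and 132 CPM in shAKR1B1 cells, 107, 114 and 99.5 CPM in shSORD cells and 153, 144 and 146 CPM in control cells, below control in every knockdown library. CBR1 fell in both comparisons with control, with a log2 fold change of -0.16 (SE 0.0579, adjusted p = 0.0309) with shAKR1B1 and -0.47 (SE 0.0582, adjusted p = 8.1e-06) with shSORD. The CBR1 call with shAKR1B1 was lost when any of the 3 shAKR1B1 libraries, control library 1 or 3 or shSORD library 1 was left out (adjusted p 0.0649 to 0.119). It was also lost with total count scaling (-0.11, adjusted p = 0.116) and with the filter of at least 1 CPM in 3 libraries (-0.12, adjusted p = 0.0738). CBR3, a related enzyme at a far lower level, had 7.60, 7.43 and 7.38 CPM in shAKR1B1 cells, 8.75, 9.92 and 8.68 CPM in shSORD cells and 11.6, 12.6 and 11.4 CPM in control cells. CBR3 fell in both comparisons with control, with a log2 fold change of -0.67 (SE 0.0841, adjusted p = 8.22e-06) with shAKR1B1 and -0.38 (SE 0.0823, adjusted p = 0.0012) with shSORD. CBR3 shares 493 exon bases with CBR3-AS1 on the other strand, so its reads are less certain. EPHX1, the microsomal epoxide hydrolase, averaged 292 ± 11.8 CPM in shAKR1B1 cells, 304 ± 30.7 CPM in shSORD cells and 298 ± 1.82 CPM in control cells and passed in neither comparison (-0.03, adjusted p = 0.7 with shAKR1B1; 0.03, adjusted p = 0.715 with shSORD), though it passed with shSORD when shSORD library 3 was left out (0.13, adjusted p = 0.0293).

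Of the 5 glutathione genes, GPX2 rose and GCLC and GCLM fell with shAKR1B1, and GPX2 rose and the other 4 fell with shSORD. GPX2 (ENSG00000176153), a glutathione peroxidase best known from gut epithelium, had 797, 755 and 788 CPM in shAKR1B1 cells, 772, 707 and 638 CPM in shSORD cells and 259.8, 238 and 233 CPM in control cells. No knockdown library came near the control range, and the fitted changes were 3.2-fold with shAKR1B1 and 2.9-fold with shSORD. GPX2 rose in both comparisons with control, with a log2 fold change of 1.68 (SE 0.0676, adjusted p = 4.81e-11) with shAKR1B1 and 1.53 (SE 0.0673, adjusted p = 1.94e-10) with shSORD. GCLC, the catalytic subunit of the enzyme that limits glutathione synthesis, had 212, 211 and 218 CPM in shAKR1B1 cells, 209.6, 207 and 231 CPM in shSORD cells and 308, 324 and 321 CPM in control cells. GCLC fell in both comparisons with control, with a log2 fold change of -0.57 (SE 0.0534, adjusted p = 3.97e-07) with shAKR1B1 and -0.56 (SE 0.0534, adjusted p = 6.31e-07) with shSORD. GCLC shares 529 exon bases on its own strand with AL033397.1, which held 6691 counts over the 9 libraries against 86640 for GCLC. GCLM, the modifier subunit of the same enzyme, had 138, 141 and 149 CPM in shAKR1B1 cells, 165, 167 and 201 CPM in shSORD cells and 196, 202 and 210.3 CPM in control cells. Its 3 shAKR1B1 libraries were lowest, while shSORD library 3 fell within the control range. GCLM fell in both comparisons with control, with a log2 fold change of -0.50 (SE 0.0704, adjusted p = 2.31e-05) with shAKR1B1 and -0.19 (SE 0.0701, adjusted p = 0.0323) with shSORD. The GCLM call with shSORD was lost without shSORD library 1 or 2, control library 2 or 3 or shAKR1B1 library 2 (-0.19 to -0.12, adjusted p 0.0512 to 0.172). It was also lost with total count scaling (-0.12, adjusted p = 0.13), with the filter of at least 1 CPM in 3 libraries (-0.15, adjusted p = 0.0788) and with only the shSORD and control libraries fitted (-0.17, adjusted p = 0.0774).

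SLC7A11, the cystine importer that feeds glutathione synthesis, had 324, 299.8 and 355 CPM in shAKR1B1 cells, 294, 241 and 313 CPM in shSORD cells and 374, 363 and 375 CPM in control cells. All knockdown libraries lay below control, with shSORD library 2 lowest. SLC7A11 did not pass the threshold with shAKR1B1, at a log2 fold change against control of -0.18 (SE 0.0819, adjusted p = 0.0682), and fell with shSORD, at -0.39 (SE 0.0821, adjusted p = 0.000941). The shAKR1B1 value passed the threshold without shAKR1B1 library 3, shSORD library 2 or shSORD library 3 (-0.25 to -0.17, adjusted p 0.00761 to 0.0346), with no expression filter (-0.20, adjusted p = 0.00383) and with only the shAKR1B1 and control libraries fitted (-0.16, adjusted p = 0.004). GSR, which returns oxidised glutathione to its reduced form with NADPH, had 446, 457 and 457 CPM in shAKR1B1 cells, 368, 400.2 and 389 CPM in shSORD cells and 464, 477 and 461 CPM in control cells. GSR did not pass the threshold with shAKR1B1, at a log2 fold change against control of -0.04 (SE 0.0481, adjusted p = 0.454), and fell with shSORD, at -0.28 (SE 0.0481, adjusted p = 0.000188).

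Of the 4 thioredoxin genes, TXNRD1 rose and SRXN1 fell with shAKR1B1, and TXN, SRXN1 and PRDX1 fell with shSORD. TXNRD1, the cytosolic thioredoxin reductase, had 1898, 1838 and 1859 CPM in shAKR1B1 cells, 1647, 1599 and 1745 CPM in shSORD cells and 1656, 1736 and 1666 CPM in control cells. TXNRD1 rose with shAKR1B1, at a log2 fold change against control of 0.15 (SE 0.0475, adjusted p = 0.0166), and did not pass the threshold with shSORD, at -0.02 (SE 0.0475, adjusted p = 0.751). The rise with shAKR1B1 was not called without shAKR1B1 library 1 or control library 1 (0.13 in both, adjusted p 0.0656 to 0.0683). TXN, thioredoxin itself, averaged 710.1 ± 17.9 CPM in shAKR1B1 cells, 684 ± 33 CPM in shSORD cells and 764 ± 21.5 CPM in control cells, and PRDX1, a peroxidase that thioredoxin recharges, 1196 ± 20.1 CPM in shAKR1B1 cells, 1047 ± 35.3 CPM in shSORD cells and 1183 ± 28.2 CPM in control cells. TXN had a log2 fold change of -0.11 (SE 0.0499, adjusted p = 0.0848) with shAKR1B1 and -0.16 (SE 0.0499, adjusted p = 0.0135) with shSORD. Its fall with shSORD was lost without control library 2 or shSORD library 1 (adjusted p 0.063 to 0.072), with total count scaling (-0.09, adjusted p = 0.107) and with only the shSORD and control libraries fitted (-0.14, adjusted p = 0.0593). With only the shAKR1B1 and control libraries fitted, TXN passed with shAKR1B1 (-0.09, adjusted p = 0.0464). PRDX1 had a log2 fold change of 0.02 (SE 0.046, adjusted p = 0.787) with shAKR1B1 and -0.18 (SE 0.046, adjusted p = 0.00436) with shSORD, and with total count scaling its fall with shSORD was -0.11. SRXN1, sulfiredoxin, which repairs over-oxidised peroxiredoxins, fell in both comparisons at a low level. It had 6.89, 6.29 and 6.31 CPM in shAKR1B1 cells, 6.79, 8.61 and 7.77 CPM in shSORD cells and 8.92, 12.9 and 11.1 CPM in control cells. SRXN1 fell in both comparisons with control, with a log2 fold change of -0.76 (SE 0.125, adjusted p = 0.000115) with shAKR1B1 and -0.50 (SE 0.123, adjusted p = 0.00277) with shSORD. The annotation places AL121758.1 over 2292 exon bases of SRXN1 on the same strand, and that gene held 0 counts, so what part of SRXN1's reads was counted is not known.

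Of the 4 genes of the NADPH supply, PGD rose and ME1 fell with shAKR1B1. PGD, an NADPH-producing enzyme of the pentose phosphate pathway, had 1828, 1891 and 1769.7 CPM in shAKR1B1 cells, 1719, 1725 and 1570.2 CPM in shSORD cells and 1614, 1635 and 1627 CPM in control cells. PGD rose with shAKR1B1, at a log2 fold change against control of 0.17 (SE 0.0495, adjusted p = 0.00847), and did not pass the threshold with shSORD, at 0.04 (SE 0.0495, adjusted p = 0.509). ME1, which makes NADPH from malate, had 116, 111 and 115 CPM in shAKR1B1 cells, 127, 118 and 141 CPM in shSORD cells and 130.2, 138 and 137 CPM in control cells, with 2 of 3 shSORD libraries under the lowest control library and the third above the highest. ME1 fell with shAKR1B1, at a log2 fold change against control of -0.24 (SE 0.0634, adjusted p = 0.00417), and did not pass the threshold with shSORD, at -0.07 (SE 0.0632, adjusted p = 0.362). TKT and TALDO1, which shuffle sugars in the same pathway, averaged 2103 ± 37.1 CPM in shAKR1B1 cells, 2110.0 ± 222 CPM in shSORD cells and 2098 ± 57.9 CPM in control cells for TKT and 410.1 ± 11.1 CPM in shAKR1B1 cells, 398 ± 32.5 CPM in shSORD cells and 383 ± 8.83 CPM in control cells for TALDO1. TKT had a log2 fold change of 0.00 (SE 0.0638, adjusted p = 0.97) with shAKR1B1 and 0.01 (SE 0.0638, adjusted p = 0.925) with shSORD. TALDO1 had 0.10 (SE 0.058, adjusted p = 0.156) with shAKR1B1 and 0.06 (SE 0.058, adjusted p = 0.418) with shSORD, and passed with shAKR1B1 without shSORD library 3 (0.11, adjusted p = 0.0425) or with only the 2 groups fitted (0.12, adjusted p = 0.00746). Without shSORD library 3 both passed with shSORD, TKT at 0.11 (adjusted p = 0.0434) and TALDO1 at 0.13 (adjusted p = 0.0386).

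HMOX1 (ENSG00000100292), the enzyme that cleaves heme to biliverdin, iron and carbon monoxide, moved furthest apart between the knockdowns. It had 54.7, 58.3 and 61.3 CPM in shAKR1B1 cells, 248, 305 and 277 CPM in shSORD cells and 173, 168 and 169.6 CPM in control cells. The shAKR1B1 libraries were all far below control and the shSORD libraries all above it. HMOX1 fell with shAKR1B1, at a log2 fold change against control of -1.55 (SE 0.0708, adjusted p = 1.82e-10), and rose with shSORD, at 0.70 (SE 0.0682, adjusted p = 7.15e-07). The ferritin chains, which store iron, split with shAKR1B1. FTL, the light chain, had 8229, 9193 and 8898 CPM in shAKR1B1 cells, 7819.9, 8172 and 7155 CPM in shSORD cells and 7368, 6892 and 7010.4 CPM in control cells. FTL rose with shAKR1B1, at a log2 fold change against control of 0.31 (SE 0.0573, adjusted p = 0.000327), and did not pass the threshold with shSORD, at 0.12 (SE 0.0573, adjusted p = 0.083). FTL passed with shSORD in total count scaling (0.19, adjusted p = 0.0137), with the filter of at least 1 CPM in 3 libraries (0.16, adjusted p = 0.0285) and without shSORD library 3 (0.19, adjusted p = 0.00496). FTH1, the heavy chain with ferroxidase activity, had 3232, 3438 and 3238 CPM in shAKR1B1 cells, 4104, 4392 and 4075 CPM in shSORD cells and 4039, 4075 and 4029 CPM in control cells, with every shAKR1B1 library below every other library. FTH1 fell with shAKR1B1, at a log2 fold change against control of -0.29 (SE 0.047, adjusted p = 8.29e-05), and did not pass the threshold with shSORD, at 0.05 (SE 0.0469, adjusted p = 0.384). Named FTL and FTH1 pseudogenes held 0.0954% and 0.105% as many counts as their parent genes. FTH1 shares 1267 exon bases with BEST1 on the other strand, and BEST1 held 389 counts over all libraries against 1343755 for FTH1.

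Of the 3 drug and conjugate exporters, ABCC2 and ABCC3 rose and ABCC1 fell with shAKR1B1, and ABCC2 rose with shSORD. ABCC2 (MRP2) had 963, 973 and 908 CPM in shAKR1B1 cells, 1030.0, 948 and 946 CPM in shSORD cells and 619, 661 and 649.8 CPM in control cells, above control in all 6 knockdown libraries. ABCC2 rose in both comparisons with control, with a log2 fold change of 0.56 (SE 0.0522, adjusted p = 3.68e-07) with shAKR1B1 and 0.60 (SE 0.0522, adjusted p = 2.35e-07) with shSORD. ABCC3 (MRP3) had 997, 994 and 973 CPM in shAKR1B1 cells, 764, 675 and 599 CPM in shSORD cells and 634, 616 and 611 CPM in control cells. Its shAKR1B1 libraries stood well above all others, while shSORD libraries ran from just under to above the control range. ABCC3 rose with shAKR1B1, at a log2 fold change against control of 0.67 (SE 0.0689, adjusted p = 1.01e-06), and did not pass the threshold with shSORD, at 0.13 (SE 0.0687, adjusted p = 0.119). The shSORD value passed without shSORD library 3 (0.23, adjusted p = 0.000859), with total count scaling (0.20, adjusted p = 0.0288) and with the filter of at least 1 CPM in 3 libraries (0.17, adjusted p = 0.0499). ABCC1 (MRP1) had 471, 495 and 480.0 CPM in shAKR1B1 cells, 534, 557 and 502 CPM in shSORD cells and 519, 529 and 545 CPM in control cells. ABCC1 fell with shAKR1B1, at a log2 fold change against control of -0.14 (SE 0.0508, adjusted p = 0.0276), and did not pass the threshold with shSORD, at -0.00 (SE 0.0508, adjusted p = 0.984). Its fall with shAKR1B1 was lost on leaving out any shAKR1B1 library, control library 2 or 3 or shSORD library 1 (-0.15 to -0.11, adjusted p 0.0605 to 0.184). It was also lost with total count scaling (-0.10, adjusted p = 0.123) and with the filter of at least 1 CPM in 3 libraries (-0.11, adjusted p = 0.0776).

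Of the 4 remaining targets, OSGIN1, TRIM16 and TRIM16L fell with shAKR1B1, and OSGIN1 and TRIM16 fell with shSORD. OSGIN1, an oxidative-stress-induced growth inhibitor, had 57.1, 64.1 and 62.8 CPM in shAKR1B1 cells, 51.5, 59.7 and 46.8 CPM in shSORD cells and 99.4, 94.9 and 97.6 CPM in control cells, with all knockdown libraries far under control. OSGIN1 fell in both comparisons with control, with a log2 fold change of -0.67 (SE 0.0776, adjusted p = 3.81e-06) with shAKR1B1 and -0.88 (SE 0.078, adjusted p = 2.68e-07) with shSORD. TRIM16, a ubiquitin ligase linked to the KEAP1-NRF2 system, had 102, 101 and 105 CPM in shAKR1B1 cells, 124, 127 and 120.1 CPM in shSORD cells and 153, 150.1 and 148 CPM in control cells. TRIM16 fell in both comparisons with control, with a log2 fold change of -0.55 (SE 0.0489, adjusted p = 2.13e-07) with shAKR1B1 and -0.29 (SE 0.0486, adjusted p = 0.000157) with shSORD. TRIM16L, its shorter copy, had 217, 217 and 221 CPM in shAKR1B1 cells, 258, 266 and 261 CPM in shSORD cells and 279.9, 276 and 268 CPM in control cells. TRIM16L fell with shAKR1B1, at a log2 fold change against control of -0.33 (SE 0.0458, adjusted p = 2.13e-05), and did not pass the threshold with shSORD, at -0.07 (SE 0.0457, adjusted p = 0.209). As 28.9% of the 50-base words of TRIM16 also occur in TRIM16L, the sum was tested too. TRIM16 also shares 1327 exon bases with AC005324.3 on its own strand, which held 625 counts over the 9 libraries against 43755 for TRIM16. The sum of TRIM16 and TRIM16L averaged 321 ± 4.34 CPM in shAKR1B1 cells, 385 ± 6.16 CPM in shSORD cells and 425 ± 8.15 CPM in control cells. The log2 fold change of the sum was -0.41 with shAKR1B1 (adjusted p = 2.34e-06) and -0.14 with shSORD (adjusted p = 0.0141). The shSORD value of the sum lost its call without control library 1 or 3 or shSORD library 1 (-0.15 to -0.12, adjusted p 0.052 to 0.0666) and under 4 other settings (-0.13 to -0.08, adjusted p 0.0558 to 0.157). PIR, an iron-binding nuclear protein, averaged 98.6 ± 4.35 CPM in shAKR1B1 cells, 103 ± 0.139 CPM in shSORD cells and 94.9 ± 3.2 CPM in control cells and passed in neither comparison (0.06, adjusted p = 0.39 with shAKR1B1; 0.12, adjusted p = 0.0629 with shSORD). PIR passed with shSORD in DESeq2 (0.13, adjusted p = 0.0495), with total count scaling (0.19, adjusted p = 0.00743), with the filter of at least 1 CPM in 3 libraries (0.16, adjusted p = 0.0145) and without shSORD library 3 (0.14, adjusted p = 0.032).

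Per length the genes covered a wide range of levels. Levels here are CPM per kilobase of annotated exon (GENCODE 29), an approximation, since the counts come from another annotation. The length joins the exons of all annotated transcripts of a gene, for example 8765 bases for AKR1C1 and 1744 bases for AKR1B10. It can exceed the length of the transcript present, which lowers the level, so the order of the genes depends in part on it. FTL had the highest mean, 9992 in shAKR1B1 cells, 8788 in shSORD cells and 8076 in control cells, and SRXN1 the lowest, 2.41 in shAKR1B1 cells, 2.86 in shSORD cells and 4.06 in control cells. AKR1B10 followed FTL with 3877 in shAKR1B1 cells, 2497 in shSORD cells and 2837 in control cells. NFE2L2 itself was among the low ones, at 23.6 in shAKR1B1 cells, 20.9 in shSORD cells and 17.6 in control cells, next to KEAP1 at 18.7 in shAKR1B1 cells, 18.1 in shSORD cells and 25.6 in control cells. The median over the 35 genes was 108 in shAKR1B1 cells, 104 in shSORD cells and 71.3 in control cells. This median follows whichever gene lies in the middle of each group and is not a typical change. The median log2 fold change of the 35 genes against control was 0.00 with shAKR1B1 and -0.07 with shSORD. By summed CPM the 5 aldo-keto reductases held 14462 ± 343 CPM in shAKR1B1 cells, 10924 ± 265 CPM in shSORD cells and 11193 ± 99.2 CPM in control cells, with AKR1B10 the largest part. The 3 exporters together held 2418 ± 51.8, 2185 ± 141 and 1795 ± 19.4 CPM in shAKR1B1, shSORD and control cells.

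**Figure D3:**
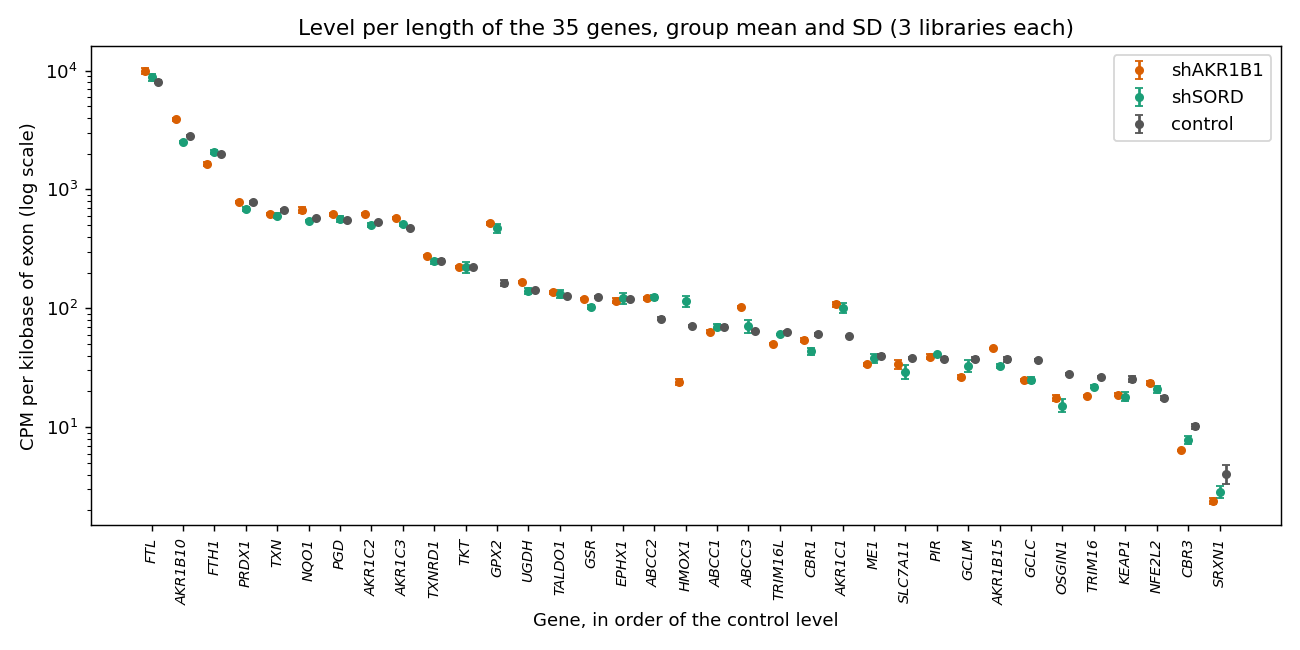
Mean level of each of the 35 genes in CPM per kilobase of exon, on a log axis, for shAKR1B1, shSORD and control cells, ordered by the control level, with bars of 1 SD over 3 libraries. FTL tops the order at 9992 in shAKR1B1 cells and SRXN1 ends it at 2.41.

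Set directly against each other, the knockdowns differed at 22 of the 35 genes: 14 were higher with shAKR1B1 than with shSORD, and 8 were lower. Over all genes tested 15.5% were higher and 15.1% lower. The median log2 difference was 0.10 over the 35 genes and 0.01 over all genes. Of these 8 lower genes HMOX1 differed by 2-fold or more, as 2.72% of all genes did in that direction and 2.47% in the other. Libraries of the same number deviated together between the knockdowns (correlations of 0.163, 0.281 and 0.207), and with the number as a block 17 genes were higher and 8 lower.

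Of the 5 reductases 4 were higher with shAKR1B1. AKR1B10 was higher with shAKR1B1 than with shSORD by log2 0.63 (SE 0.043, adjusted p = 4.24e-08) and AKR1B15 by 0.49 (SE 0.0544, adjusted p = 7.32e-06), each library of the first group above each of the second. AKR1C2 followed at 0.29 (SE 0.0452, adjusted p = 0.000154). AKR1C3 was higher by 0.17 (SE 0.0454, adjusted p = 0.0109), a call lost without shAKR1B1 library 1 or 2 (0.16 in both, adjusted p 0.0507 to 0.0567). AKR1C1 differed by 0.10 (SE 0.063, adjusted p = 0.272), which did not pass, while the AKR1C sum gave 0.22 (adjusted p = 0.00148). ABCC3 had the second-largest positive difference of the 35 genes, 0.54 (SE 0.0688, adjusted p = 2.57e-05). NQO1 (0.30, SE 0.0475, adjusted p = 0.000231), CBR1 (0.31, SE 0.0582, adjusted p = 0.000794) and UGDH (0.24, SE 0.0531, adjusted p = 0.00261) were also higher, though CBR1 lay below control in both knockdowns. GSR (0.23, SE 0.0481, adjusted p = 0.00181), PRDX1 (0.19, SE 0.046, adjusted p = 0.00522) and TXNRD1 (0.16, SE 0.0475, adjusted p = 0.0161) were higher too, and of these TXNRD1 was lost without shAKR1B1 library 1 (0.15, adjusted p = 0.0711).

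HMOX1 was lower with shAKR1B1 than with shSORD, at a log2 fold change of -2.25 (SE 0.0719, adjusted p = 1.49e-11), the largest difference among the 35. FTH1 (-0.34, SE 0.047, adjusted p = 5.31e-05), GCLM (-0.32, SE 0.0704, adjusted p = 0.00325), TRIM16L (-0.26, SE 0.0458, adjusted p = 0.000495) and TRIM16 (-0.27, SE 0.0489, adjusted p = 0.000683) were lower as well. CBR3 was lower at -0.29 (SE 0.0854, adjusted p = 0.0183), a call lost without shAKR1B1 library 2 or 3 or shSORD library 2 (adjusted p 0.0599 to 0.0629). The calls of ME1 (-0.17, SE 0.0633, adjusted p = 0.0498) and ABCC1 (-0.14, SE 0.0508, adjusted p = 0.0498) were lost on leaving out any 1 of 8 libraries, that is all but shSORD library 2 for ME1 (adjusted p 0.0669 to 0.154) and all but shSORD library 3 for ABCC1 (adjusted p 0.0681 to 0.175). ME1 also missed the threshold with edgeR's RLE scaling and with only the knockdown libraries fitted (adjusted p 0.0515 to 0.0862). ABCC1 missed it in those settings, in DESeq2 and with no expression filter (adjusted p 0.057 to 0.0992).

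A few direct differences hung on single libraries. NFE2L2 was higher with shAKR1B1 by 0.17 (SE 0.0585, adjusted p = 0.0345), lost without shAKR1B1 library 1 or 3, shSORD library 1 or 2 or control library 1 (adjusted p 0.0504 to 0.13). It was also lost with total count scaling (0.15, adjusted p = 0.0527) and with only the knockdown libraries fitted (0.17, adjusted p = 0.0843). OSGIN1 was higher by 0.22 (SE 0.0783, adjusted p = 0.0462), lost on leaving out any library but shAKR1B1 library 1 and shSORD library 2 (0.14 to 0.22, adjusted p 0.0655 to 0.157), and under 3 other settings (adjusted p 0.0551 to 0.119). FTL was higher by 0.19 (SE 0.0573, adjusted p = 0.0234), lost without shAKR1B1 library 2 or 3 or shSORD library 3 (adjusted p 0.0643 to 0.123) and with only the knockdown libraries fitted (0.18, adjusted p = 0.0615). GPX2 (0.14, SE 0.0656, adjusted p = 0.112), PGD (0.13, SE 0.0495, adjusted p = 0.0587) and SLC7A11 (0.21, SE 0.082, adjusted p = 0.071) did not pass. With the library number as a block over all 9 libraries the values were 0.15 for GPX2 (adjusted p = 0.0435), 0.13 for PGD (adjusted p = 0.04) and 0.21 for SLC7A11 (adjusted p = 0.0119), all past the threshold. With the block on the knockdown libraries alone, SLC7A11 passed (0.20, adjusted p = 0.00624), and GPX2 (0.14, adjusted p = 0.0547) and PGD (0.12, adjusted p = 0.0532) did not. In that blocked fit NFE2L2, OSGIN1, FTL, ME1 and ABCC1 passed, with adjusted p 0.00333 to 0.0408. Without a block they passed on leaving out 1 library, GPX2 without shSORD library 1 (0.21, adjusted p = 0.0278), PGD without shSORD library 2 (0.15, adjusted p = 0.0307) and SLC7A11 without shAKR1B1 library 2 or shSORD library 3 (adjusted p 0.00635 to 0.0316). SLC7A11 passed with no expression filter as well (0.20, adjusted p = 0.00551). KEAP1 (0.05, SE 0.0669, adjusted p = 0.621), GCLC (-0.01, SE 0.0534, adjusted p = 0.884) and ABCC2 (-0.04, SE 0.052, adjusted p = 0.608) did not pass either. The same held for TXN (0.05, SE 0.0499, adjusted p = 0.447), SRXN1 (-0.25, SE 0.128, adjusted p = 0.154), TKT (-0.00, SE 0.0638, adjusted p = 0.963), TALDO1 (0.04, SE 0.058, adjusted p = 0.626), PIR (-0.07, SE 0.0529, adjusted p = 0.375) and EPHX1 (-0.06, SE 0.065, adjusted p = 0.514), of which EPHX1 passed without shSORD library 3 (-0.15, adjusted p = 0.0241).

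**Figure D4:**
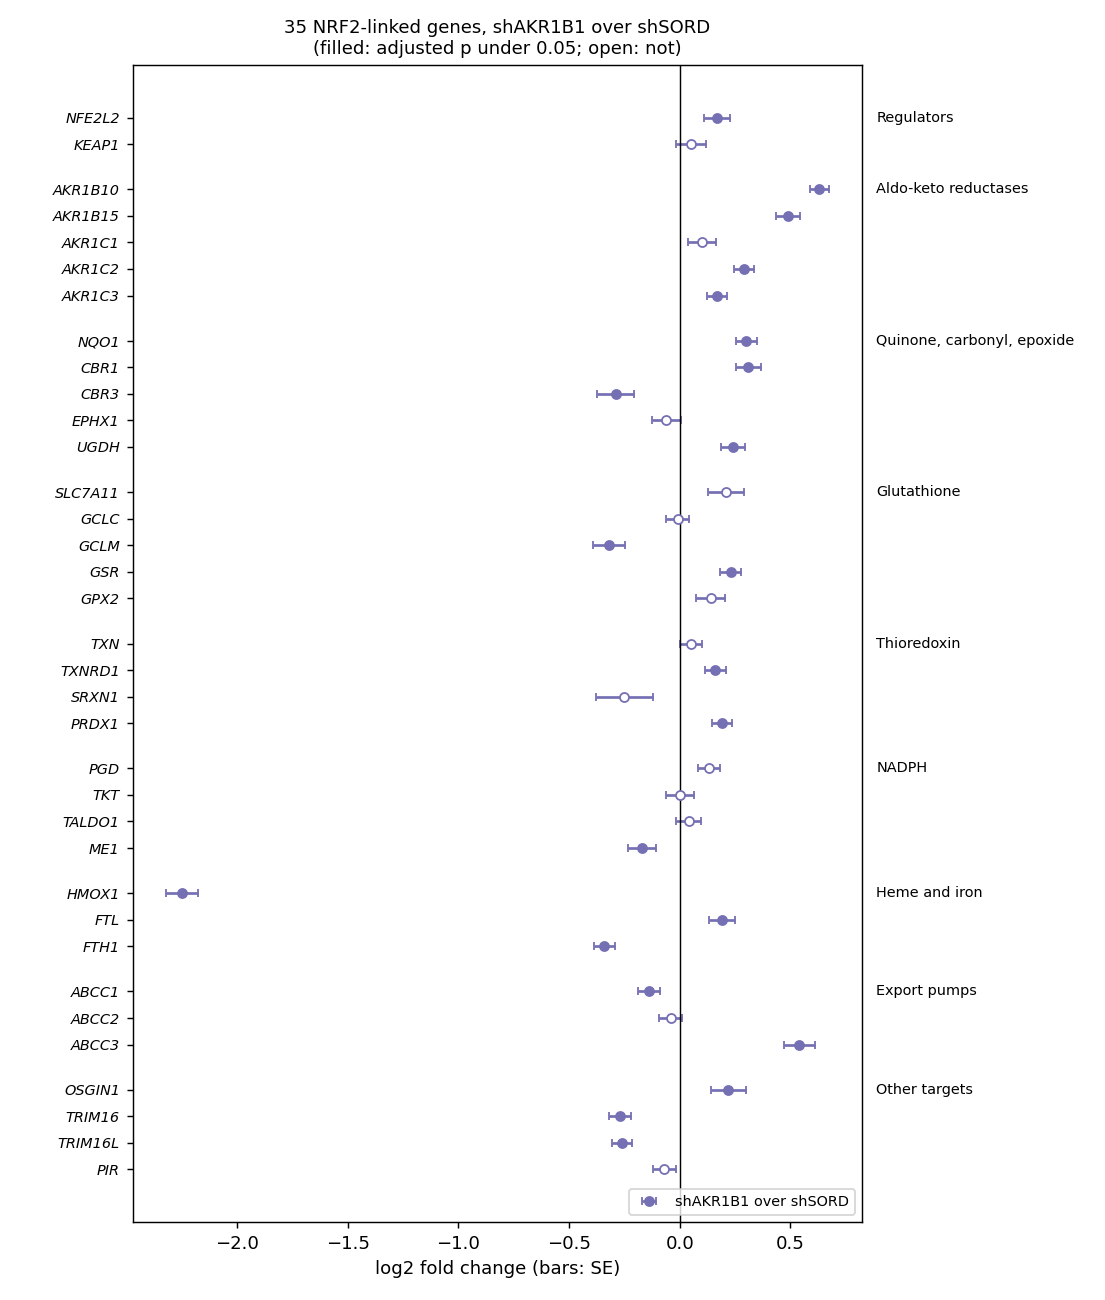
Log2 fold change of each of the 35 genes in shAKR1B1 over shSORD cells, grouped by role, with bars of 1 SE and filled marks for adjusted p under 0.05. AKR1B10 (0.63) and ABCC3 (0.54) lie at the positive end and HMOX1 (-2.25) far out at the negative end.

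Related genes outside the 35 were drawn from 7 lists, and in each list and comparison the largest called rises and falls are named, with the log2 fold change and adjusted p in parentheses. A gene named for 1 comparison can have changed in another as well without being named there. The counts of each list stand beside the share over all genes tested. That share was 27.8% risen and 29.6% fallen with shAKR1B1, and 27.5% risen and 29.0% fallen with shSORD. Of the 16 partners and competitors of NRF2, 5 rose and 6 fell with shAKR1B1, and 4 rose and 7 fell with shSORD. BACH1, the repressor of antioxidant response elements, averaged 65.3 ± 4.32 CPM in shAKR1B1 cells, 29.6 ± 3.2 CPM in shSORD cells and 25.5 ± 0.353 CPM in control cells. Its level with shAKR1B1 was 2.56 times that of control (in log2 1.36, SE 0.0787, adjusted p = 2.43e-09), and it was higher with shAKR1B1 than with shSORD by 1.14 (SE 0.0777, adjusted p = 4.6e-08). With shSORD it rose by 0.22 (SE 0.0796, adjusted p = 0.0309), a call lost without any 1 control library or shSORD library 1 (adjusted p 0.0508 to 0.112). HMOX1, which BACH1 is known to repress, was lowest in the same shAKR1B1 libraries, and the part of BACH1 in this was not tested. BACH2, a relative of BACH1, rose with shAKR1B1 (1.64, adjusted p = 6.81e-05) and with shSORD (2.06, adjusted p = 5.24e-06) from a control mean of 0.509 CPM. MAFK, a small MAF partner of NRF2, averaged 69.4 ± 3.96 CPM in shAKR1B1 cells, 117 ± 11.4 CPM in shSORD cells and 58.5 ± 2.94 CPM in control cells, up with shSORD (1.00, adjusted p = 3.78e-08) and lower with shAKR1B1 than with shSORD (-0.75, adjusted p = 1.59e-06). MAFF, another, was higher with shAKR1B1 than with shSORD (0.68, adjusted p = 6.65e-05).

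NFE2L3, a relative of NRF2, fell with shAKR1B1 (-0.80, adjusted p = 4.49e-06) and with shSORD (-0.64, adjusted p = 4.21e-05). SQSTM1, the autophagy receptor that sequesters KEAP1, fell with shAKR1B1 (-0.41, adjusted p = 5.98e-06), and CUL3, the scaffold of KEAP1's ligase, fell with shSORD (-0.43, adjusted p = 0.000722). Both means lay below control in each knockdown. SQSTM1 averaged 797 ± 20.9 CPM in shAKR1B1 cells, 896 ± 50.4 CPM in shSORD cells and 1062 ± 21.2 CPM in control cells. For CUL3 the means were 112 ± 4.62 CPM in shAKR1B1 cells, 96.0 ± 15.8 CPM in shSORD cells and 129.5 ± 3.31 CPM in control cells. SQSTM1 was also lower with shAKR1B1 than with shSORD (-0.17, adjusted p = 0.0198), a call lost without shAKR1B1 library 1 or 3 or shSORD library 2 (adjusted p 0.0536 to 0.0938) or with only the knockdown libraries fitted (adjusted p = 0.0508).

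In the wider glutathione list, 13 of 24 tested genes rose and 4 fell with shAKR1B1, and 14 rose and 4 fell with shSORD. Glutathione transferase GSTM2 rose with shAKR1B1 (1.68, adjusted p = 2.61e-07) and with shSORD (1.52, adjusted p = 1.02e-06), at a control mean of 0.901 CPM. Glutaredoxin GLRX doubled with shAKR1B1 (117 against 58.3 CPM; 1.01, adjusted p = 1.18e-08) and was higher than with shSORD (0.45, adjusted p = 0.00012). GPX3, the secreted peroxidase, rose with shSORD (0.89, adjusted p = 3.38e-08). It averaged 34.3 ± 1.2 CPM in shAKR1B1 cells, 32.9 ± 1.07 CPM in shSORD cells and 17.8 ± 0.676 CPM in control cells. GPX1, the ubiquitous selenoenzyme, fell with shAKR1B1 (-0.94, adjusted p = 4.03e-07) and with shSORD (-0.61, adjusted p = 3.16e-05), and was lower with shAKR1B1 than with shSORD (-0.33, adjusted p = 0.0113), a call lost without shAKR1B1 library 1 (adjusted p = 0.0634). SLC3A2, the partner chain of SLC7A11, fell with shAKR1B1 (-0.67, adjusted p = 2.38e-06) and was lower there than with shSORD (-0.62, adjusted p = 1.46e-05). The methylglyoxal enzyme GLO1 fell with shSORD (-0.41, adjusted p = 0.000772). It averaged 132 ± 5.41 CPM in shAKR1B1 cells, 117 ± 18.5 CPM in shSORD cells and 155 ± 4.61 CPM in control cells. OPLAH, which recycles 5-oxoproline to glutamate, was higher with shAKR1B1 than with shSORD (0.36, adjusted p = 0.0316), lost without any shAKR1B1 library or shSORD library 1 or 3 (adjusted p 0.0593 to 0.101).

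Of 15 other thioredoxin and peroxide genes tested, 1 rose and 8 fell with shAKR1B1, and 4 rose and 6 fell with shSORD. SESN3, a sestrin, is the 1 that rose with shAKR1B1, at 11.4 against 2.13 CPM (2.42, adjusted p = 5.48e-09), and it rose with shSORD at 10.3 against 2.13 CPM (2.27, adjusted p = 1.7e-08). SESN1, another sestrin, rose with shSORD (0.57, adjusted p = 3.47e-05) and was lower with shAKR1B1 than with shSORD (-0.68, adjusted p = 1.66e-05). NXN, nucleoredoxin, fell to 49.8% of its control level with shAKR1B1 (adjusted p = 3.36e-08) and was lower there than with shSORD (-0.67, adjusted p = 7.36e-06). TXNRD2, the mitochondrial thioredoxin reductase, fell with shAKR1B1 (-0.39, adjusted p = 0.000222) and with shSORD (-0.38, adjusted p = 0.000317). Methionine sulfoxide reductase MSRA fell with shSORD (-0.48, adjusted p = 0.000504). It averaged 7.40 ± 0.589 CPM in shAKR1B1 cells, 6.81 ± 0.538 CPM in shSORD cells and 9.53 ± 0.516 CPM in control cells. The mitochondrial peroxiredoxin PRDX3 was higher with shAKR1B1 than with shSORD (0.35, adjusted p = 0.00489), and so was SOD1 (0.15, adjusted p = 0.03), whose call was lost without any shAKR1B1 library, shSORD library 1 or control library 2 or 3 (adjusted p 0.0519 to 0.119), and under 4 other settings (adjusted p 0.0579 to 0.106).

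Among 18 further genes of NADPH metabolism, 4 rose and 7 fell with shAKR1B1, and 4 rose and 8 fell with shSORD. IDH2 (0.35, adjusted p = 0.000237) and IDH1 (0.34, adjusted p = 2.96e-05), which make NADPH from isocitrate, rose with shAKR1B1. IDH2 averaged 78.3 ± 3.37 CPM in shAKR1B1 cells, 72.8 ± 5.46 CPM in shSORD cells and 61.4 ± 1.37 CPM in control cells. For IDH1 the means were 331 ± 7.33 CPM in shAKR1B1 cells, 320 ± 14.6 CPM in shSORD cells and 261 ± 2.08 CPM in control cells. ME3, a mitochondrial malic enzyme, fell with shAKR1B1 (-0.86, adjusted p = 6.44e-08) and was lower there than with shSORD (-0.84, adjusted p = 2.75e-07). TIGAR, a p53-induced phosphatase of fructose 2,6-bisphosphate, fell with shAKR1B1 (-0.80, adjusted p = 6.32e-07) and with shSORD (-0.44, adjusted p = 0.000191). With shSORD the transhydrogenase NNT (0.85, adjusted p = 3.06e-07) and the folate enzyme ALDH1L2 (0.57, adjusted p = 0.000105) rose, and the folate enzyme MTHFD2 fell (-0.81, adjusted p = 1.77e-07). MTHFD2 averaged 117 ± 5.06 CPM in shAKR1B1 cells, 117 ± 12.6 CPM in shSORD cells and 204 ± 3.61 CPM in control cells. ALDH1L2 was lower with shAKR1B1 than with shSORD (-0.69, adjusted p = 4.37e-05). RPE, an epimerase of the pentose phosphate pathway, was higher with shAKR1B1 than with shSORD (0.23, adjusted p = 0.0272), lost without shAKR1B1 library 1 or 3 or shSORD library 1 or 2 (adjusted p 0.0708 to 0.116) or with only the knockdown libraries fitted (adjusted p = 0.0718).

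Of 9 other aldo-keto reductase family genes tested, AKR1B1 included, 2 rose and 4 fell with shAKR1B1, and 2 rose and 3 fell with shSORD. AKR1C4, the liver form, rose with shAKR1B1 (1.21, adjusted p = 3.51e-06) at only 3.44 against 1.48 CPM, and was higher than with shSORD (1.23, adjusted p = 7.7e-06). AKR1E2 rose with shSORD (0.29, adjusted p = 0.00178) and with shAKR1B1 (0.21, adjusted p = 0.0134), the second call being lost without control library 3 or shAKR1B1 library 1 (adjusted p 0.0532 to 0.0553) or with no expression filter (adjusted p = 0.0676). KCNAB3, a potassium channel beta subunit of the family, fell with shAKR1B1 (-0.77, adjusted p = 0.0005) and rose with shSORD (0.46, adjusted p = 0.00981), with a difference between the knockdowns as well (-1.23, adjusted p = 1.27e-05). KCNAB2 fell with shSORD (-0.28, adjusted p = 0.00335). It averaged 23.1 ± 0.81 CPM in shAKR1B1 cells, 22.9 ± 1.63 CPM in shSORD cells and 27.7 ± 0.998 CPM in control cells. AKR7A2 was higher with shAKR1B1 than with shSORD (0.23, adjusted p = 0.0166). That call was lost without shAKR1B1 library 1 or shSORD library 1 (adjusted p 0.0529 to 0.0541) or with only the knockdown libraries fitted (adjusted p = 0.0562). AKR1B1 itself fell with its own hairpin (-3.20, adjusted p = 5.4e-13) and with shSORD (-0.41, adjusted p = 0.000131).

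Of 17 other detoxification genes, 9 rose and 4 fell with shAKR1B1, and 9 rose and 5 fell with shSORD. ALDH3A1, an aldehyde dehydrogenase, averaged 2004 ± 75.9 CPM in shAKR1B1 cells, 909.9 ± 108 CPM in shSORD cells and 1959 ± 59.1 CPM in control cells. It fell with shSORD (-1.11, adjusted p = 1.04e-08) and was higher with shAKR1B1 than with shSORD (1.14, adjusted p = 1.88e-08). CYP4F3, a leukotriene hydroxylase, rose with shAKR1B1 (1.48, adjusted p = 1.05e-10) and with shSORD (1.06, adjusted p = 5.6e-09). The glucuronosyltransferase UGT1A6, whose exons are shared in part with the other UGT1A genes, rose with shAKR1B1 (1.74, adjusted p = 3.79e-08) and was higher than with shSORD (0.99, adjusted p = 1.6e-05). ABCC5, a nucleotide exporter, rose with shSORD (0.77, adjusted p = 1.07e-07). It averaged 40.6 ± 0.788 CPM in shAKR1B1 cells, 51.9 ± 2.05 CPM in shSORD cells and 30.4 ± 1.73 CPM in control cells. CES1, a carboxylesterase, fell with shAKR1B1 (-1.37, adjusted p = 2.8e-07) and with shSORD (-2.34, adjusted p = 3.83e-09). NQO2, the relative of NQO1, fell with shAKR1B1 (-0.71, adjusted p = 3.39e-07) and was lower there than with shSORD (-0.58, adjusted p = 8.03e-06), as was the dehydrogenase DHRS2 (-0.70, adjusted p = 5.13e-06).

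Of 11 other heme and iron genes tested, 4 rose and 6 fell with shAKR1B1, and 2 rose and 5 fell with shSORD. SLC40A1 (ferroportin), the iron exporter, had 86.8, 79.5 and 75.3 CPM in shAKR1B1 cells, 48.3, 38.8 and 45.2 CPM in shSORD cells and 13.3, 12.4 and 13.1 CPM in control cells. The 3 groups were separate, with shAKR1B1 highest and control lowest. SLC40A1 rose in both comparisons with control, with a log2 fold change of 2.64 (SE 0.0868, adjusted p = 5.87e-12) with shAKR1B1 and 1.77 (SE 0.0863, adjusted p = 6.08e-10) with shSORD. It was higher with shAKR1B1 than with shSORD (0.87, adjusted p = 9.05e-07), the opposite order to HMOX1. ABCB6, a porphyrin transporter, rose with shAKR1B1 (0.32, adjusted p = 0.00763) and with shSORD (0.70, adjusted p = 8.42e-06). ALAS1, which starts heme synthesis, fell with shAKR1B1 (-0.64, adjusted p = 1.09e-06) and with shSORD (-0.72, adjusted p = 3.99e-07). IREB2, an iron regulatory protein, fell with shAKR1B1 (-0.71, adjusted p = 2.01e-06) and was lower there than with shSORD (-0.73, adjusted p = 4.57e-06). TFRC, the transferrin receptor, fell with shSORD (-0.43, adjusted p = 0.000221). It averaged 267 ± 9.34 CPM in shAKR1B1 cells, 279 ± 39.5 CPM in shSORD cells and 376 ± 6.24 CPM in control cells. Biliverdin reductase BLVRA was higher (0.27, adjusted p = 0.00326) and the heme transporter SLC48A1 lower (-0.55, adjusted p = 2.66e-05) with shAKR1B1 than with shSORD.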

How the data were processed

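RNA of 9 A549 cultures was sequenced, with 3 libraries per group. Per the labels' protocols, extraction used Qiazol with miRNeasy columns, and TruSeq stranded mRNA libraries were sequenced. The authors deposited whole-number counts of reads per Ensembl gene without normalization. The software listed per the submitters' processing notes is featureCounts 1.5.1 (Subread), STAR 2.5.2b, cutadapt 1.9.1 and DESeq2 1.12.3, on GRCh37. Not given in the sources used here are the annotation release, the strand setting and how multi-mapping reads were counted.

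The counts were analysed with edgeR 4.0.16 (R 4.3.3), after its filterByExpr step and TMM normalization, in a model of 1 mean per group over all 9 libraries with 6 residual degrees of freedom, and Benjamini-Hochberg adjustment over 16916 genes in each of 3 comparisons. The common biological coefficient of variation was 6.59%. Alternatives were other scalings, filters, DESeq2 1.42.0, a replicate block, fits of 2 groups and leaving out each library. The numbered libraries were checked for pairing by the correlation of their deviations from group means. It was over 0.1 for every number between the knockdowns and under 0.1 for every number between control and either knockdown. Blocked values of genes are therefore printed for the direct comparison, and against control only the blocked counts and the call that changed. The fit of that block to the knockdown libraries alone was added after seeing the data.

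The 35 genes and the 7 lists of related genes were chosen with earlier results of these data known, so lists have counts and no test. All 35 genes are named. Of each list, the 2 largest called rises and falls per comparison are named, among genes averaging 50 counts or more per library. A gene that this rule names is not reported here. Of 119 related symbols 116 matched a gene ID. Exon lengths and overlaps came from GENCODE 29, which is not the annotation of the counts. Upstream sequences came from RefSeq. No 2 libraries of a group agreed within sampling noise (chi-square per degree of freedom 2.43 or more). Pairs of shSORD libraries were furthest apart, at 13.1 to 27.5, against 2.43 to 5.99 for control pairs and 3.44 to 6.45 for shAKR1B1 pairs.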

Additional observations from a re-analysis of the deposited data

Results flagged for a closer look

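HMOX1, AKR1B10 and AKR1B15 moved in opposite directions in the 2 knockdowns, each called against control, with a direct difference that also passed the threshold in edgeR's quasi-likelihood test. HMOX1 fell to 58.1 ± 3.29 CPM with shAKR1B1 and rose to 277 ± 28.1 CPM with shSORD, against 170.1 ± 2.93 CPM in control cells. Its direct log2 difference was -2.25 (adjusted p = 1.49e-11), and all 3 shAKR1B1 libraries were below all 3 shSORD libraries. AKR1B10 had 6762 ± 153 CPM with shAKR1B1, 4355 ± 107 CPM with shSORD and 4947 ± 37 CPM in control cells, with a direct log2 difference of 0.63 (adjusted p = 4.24e-08). AKR1B15 had 153 ± 2.16, 109 ± 4.47 and 124 ± 6.34 CPM in the same order of groups, with a direct log2 difference of 0.49 (adjusted p = 7.32e-06). Its fall with shSORD against control was not called without control library 1 (log2 -0.14, adjusted p = 0.0644) or with total count scaling (-0.12, adjusted p = 0.088). AKR1B15 shares sequence with AKR1B10, so the 2 values are not independent counts. KCNAB3, one of the related genes, had 2.16 ± 0.354 CPM with shAKR1B1, 5.12 ± 0.459 CPM with shSORD and 3.72 ± 0.57 CPM in control cells, also in opposite directions, with a direct log2 difference of -1.23 (adjusted p = 1.27e-05).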

How the results depend on the processing

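Over all alternatives, 1617 of the single-gene values of the 35 genes kept their side of the threshold, 82 lost a call and 37 gained one. None changed the sign of a called value. Values called in neither fit count among the 1617 whatever their sign. The number that rose with shSORD was 5 in the reported fit, 9 with total count scaling, 9 with the filter of at least 1 CPM in 3 libraries, and 5 to 12 on leaving out 1 library. The number lower with shAKR1B1 than with shSORD was 8 in the reported fit and 5 to 8 on leaving out 1 library, with 5 without shAKR1B1 library 2 or 3. The other counts stayed within 1.5 times the reported ones. Against control with shSORD, the AKR1C sum passed at 0.14 with total count scaling and 0.12 with that filter (0.06 to 0.13 on leaving out 1 library), and the TRIM16 sum missed at -0.08 with total count scaling, -0.13 with no filter, -0.10 with that filter and -0.12 with only the 2 groups fitted (-0.16 to -0.12 on leaving out 1 library). The median level per length was 107 in shSORD cells and 69.5 in control cells with total count scaling.

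With the replicate number as a block, 17 genes were higher and 8 lower between the knockdowns (15 and 8 with the knockdown libraries alone), 14 rose and 14 fell with shAKR1B1 against control, and 5 rose and 14 fell with shSORD. Among the 35 genes it changed, between the knockdowns, the calls of GPX2, PGD and SLC7A11, and with the knockdown libraries alone that of SLC7A11. With shAKR1B1 against control, SLC7A11 passed with the block (-0.19, adjusted p = 0.012). Without the block, the knockdown libraries alone gave 11 higher and 6 lower. Against control the numbers did not pair the libraries. The depth of 32436524 counts or more leaves SRXN1 and CBR3, under 13 CPM throughout, as the least precise of the 35 genes.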
